A study of Homo sapiens with 2 samples.

Results

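The E2F and DP transcription factors were examined in LNCaP cells, an established androgen-responsive line from a human prostate carcinoma. In the knockdown culture a lentivirus delivered a hairpin RNA directed at KDM4A, which removes methyl groups from lysines of histone H3. The control culture was infected with the empty pLKO.1 vector. Both were harvested 3 days after infection and profiled on an Affymetrix expression array, 1 array in each group. The members were E2F1 to E2F8, TFDP1 and TFDP2, 10 genes in all, found as every probe set annotated to exactly 1 of them. This gave 21 probe sets for 9 genes, out of 17689 genes measured. E2F8 was not analysed here, because the table used here had no probe set for it, and no probe set named a member beside other genes.

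E2F proteins bind DNA at the promoters of genes for S phase entry, most of them as a pair with a DP protein. The pocket proteins (RB1, RBL1 and RBL2) hold these pairs inactive or repressive until cyclin-dependent kinases phosphorylate them. E2F1, E2F2 and E2F3 are classed as activators. E2F4 and E2F5 act mainly with pocket proteins in quiescent and early G1 cells, E2F6 represses without pocket proteins as part of a Polycomb complex, and E2F7 and E2F8 are atypical repressors that carry a pair of DNA-binding domains and need no DP partner. The genes of the activators are themselves known E2F targets, which is why the promoters of these 3 genes are shown.

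The sequences are the 250 bases before the start of each gene, 5′ to 3′ on the strand of the gene, from RefSeq on GRCh38.p14. E2F1 is at chr20:33686386-33686635 on the minus strand, E2F2 at chr1:23531234-23531483 on the minus strand, and E2F3, at the outer of its 2 listed starts, at chr6:20401629-20401878 on the plus strand. Capitals mark matches to E2F words on either strand.
E2F1: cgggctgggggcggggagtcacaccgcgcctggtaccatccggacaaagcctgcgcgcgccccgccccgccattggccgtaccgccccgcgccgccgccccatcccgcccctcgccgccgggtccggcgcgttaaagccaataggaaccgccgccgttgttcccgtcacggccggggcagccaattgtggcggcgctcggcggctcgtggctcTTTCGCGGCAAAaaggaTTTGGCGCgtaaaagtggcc
E2F2: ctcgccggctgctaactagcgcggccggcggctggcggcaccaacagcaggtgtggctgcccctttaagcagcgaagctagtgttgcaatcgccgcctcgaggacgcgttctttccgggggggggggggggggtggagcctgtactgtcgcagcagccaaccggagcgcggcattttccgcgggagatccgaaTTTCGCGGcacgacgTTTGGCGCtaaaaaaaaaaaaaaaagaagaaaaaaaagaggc
E2F3: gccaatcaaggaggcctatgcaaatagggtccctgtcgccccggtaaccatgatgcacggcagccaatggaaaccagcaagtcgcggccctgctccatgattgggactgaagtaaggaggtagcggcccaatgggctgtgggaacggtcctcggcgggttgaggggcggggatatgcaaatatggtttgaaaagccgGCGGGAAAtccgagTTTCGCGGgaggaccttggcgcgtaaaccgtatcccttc
The first set of words was TTTCCCGC, TTTCGCGC, TTTGCCGC and TTTGGCGC, and the second TTTCCCGG, TTTCGCGG, TTTGCCGG and TTTGGCGG. Both sets were chosen after these promoters had been read. All 3 stretches hold TTTCGCGG on the strand of the gene. E2F1 and E2F2 also hold TTTGGCGC on that strand, ending 13 bases before the start in E2F1 and 35 bases before it in E2F2, and E2F3 holds TTTCCCGC on the opposite strand. In E2F1 a match to TTTGCCGC on the opposite strand overlaps TTTCGCGG.

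RefSeq promoters were found for 8 of the 10 members, in 11 windows of 300 bases that include 50 bases after the start. E2F5 and E2F8 were not among them. A word of the first set occurred in 4 of the 11 windows (36.4%) and one of the second set in 5 (45.5%), against 3.31% and 3.03% of all 35116 promoters. The words were chosen after the activator promoters had been read, and these are among the 11 windows. The higher shares of the members are therefore not independent evidence. Besides the activators, TFDP1 held a first-set word, and E2F6 and the outermost window of TFDP2 held second-set words. The windows of E2F4 and E2F7, and the window at the inner start of E2F3, held no word of either set. This says only that these letters are not there. Such matches describe the sequence and are not binding sites shown by these data.

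Each deposited value is a log2-scale signal that had been centred on the mean of the 2 arrays, so the arrays are mirror images and the level of a gene cannot be read. A difference below is the knockdown value minus the control value. Errors after ± are the SD over the probe sets of a gene and leave out the spread between cultures. With 1 array in each group there was no test, and no difference below has a replicate check. The number of arrays limits the precision. The empty vector carries no hairpin, so the effect of expressing a hairpin and that of losing KDM4A cannot be told apart. All genes together had a median of 0.020 and quartiles of -0.14 and 0.18, and the SD between probe sets, pooled over genes, was 0.33.

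KDM4A itself had a centred value of -0.59 in the knockdown array, against 0.59 in the control array, a difference of -1.18 ± 0.40 over 2 probe sets (2.26-fold lower). Markers of luminal prostate cells had a median difference of 0.11 over 7 measured genes, and their levels could not be checked after centring. Median differences were -0.073 for basal epithelium (4 genes), 0.0091 for genes of the embryonic kidney line used for packaging (6 genes), 0.060 for fibroblasts (5 genes) and 0.012 for leukocytes (3 genes). None of these 25 marker genes differed 2-fold, but 3 passed 1.5-fold, where 4.3% of all genes were higher and 4.38% lower by that size. The 3 genes were TMPRSS2 of the luminal list (-0.76 ± 0.16, 4 probe sets) and COL1A1 (0.73 ± 0.76, 4 probe sets) and COL3A1 (0.63 ± 0.68, 3 probe sets) of the fibroblast list. Fewer cells in S phase and less E2F RNA in each cell cannot be told apart in RNA from a whole culture.

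No E2F or DP gene differed 2-fold between the arrays. Of 9 measured genes, 0 passed 2-fold in either direction, where 1.16% of all genes passed it as higher and 1.44% as lower. None of the 21 probe sets passed it, where 1.48% of all probe sets with 1 gene did as higher and 2.39% as lower. At a smaller size of 1.5-fold, E2F3 and E2F5 were higher and TFDP2 was lower, where 4.3% of all genes were higher and 4.38% lower by that rule. Of the 21 probe sets, 2 were higher and 3 lower by that size, against 5.5% and 6.37% of all probe sets with 1 gene. Each of the 3 gene calls was lost when 1 probe set was left out, at a lowest mean of 0.57 for E2F3 and 0.38 for E2F5 and a mean of -0.56 for TFDP2. With 9 genes, such counts were not tested against that background. The other 6 genes lay between -0.30 and 0.19, and the median of the 9 was 0.016, close to that of all genes.

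**Figure D1:**
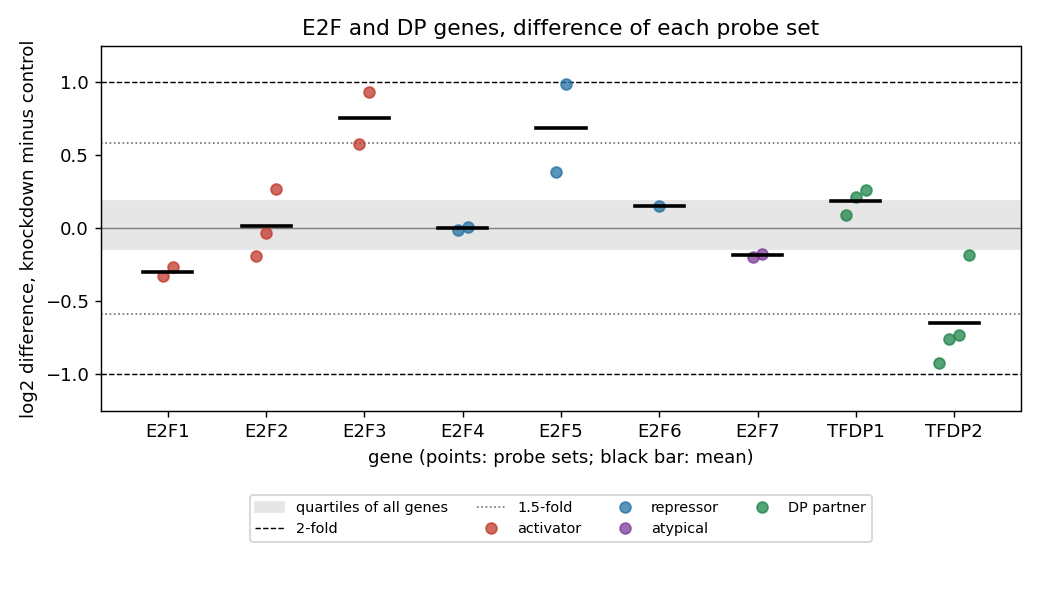
Log2 difference (knockdown minus control, vertical axis) of each probe set (points) of the 9 measured E2F and DP genes (horizontal axis), with the mean of each gene as a black bar. The grey band runs between the quartiles of all genes, and lines mark 1.5-fold and 2-fold. All points lie inside 2-fold, the means of E2F3 and E2F5 lie above the upper 1.5-fold line and that of TFDP2 below the lower one.

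Among the activators, the 3 genes lay apart from each other. E2F3 read 0.47 and 0.29 on its 2 probe sets (203693_s_at and 203692_s_at) in the knockdown array, against -0.47 and -0.29 in the control array. The probe sets differed by 0.94 and 0.57 and both were higher in the knockdown. Their mean difference of 0.76 ± 0.26 (1.69-fold higher) exceeded that of 97.6% of all genes. Its 2 RefSeq starts give the long and the short form of E2F3, and these values do not say which form a probe set reads.

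E2F1, the member most often tied to both proliferation and apoptosis, ran the other way by a smaller amount. Its probe sets 2028_s_at and 204947_at read -0.16 and -0.13 in the knockdown array, against 0.16 and 0.13 in the control array. Both were lower in the knockdown, with differences of -0.32 and -0.27 and a mean of -0.30 ± 0.040 (1.23-fold lower). Lower values were found for 12.5% of genes, and 27.3% lay at least as far from 0. E2F3 exceeded E2F1 by 1.05 on the log2 scale, and no probe set of one overlapped those of the other.

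E2F2, the third activator, had no settled direction. Its 3 probe sets differed by -0.19, -0.033 and 0.27, and its mean of 0.016 ± 0.24 lay near the middle of all genes. The class median of the activators was therefore that of E2F2, 0.016, with a mean of 0.16 drawn up by E2F3. The median turned to -0.033 with medians over probe sets and to -0.13 over the 2 genes left without probe sets ending in _s_at or _x_at, which can match several transcripts.

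Among the repressors, E2F5 was the member that lay apart. Its probe sets 221586_s_at and 222051_s_at read 0.49 and 0.19 in the knockdown array, against -0.49 and -0.19 in the control array. Both were higher in the knockdown, by 0.99 and 0.38, but they differ from one another by nearly as much as their mean of 0.69 ± 0.43 (1.61-fold higher). The first probe set lay just inside the 2-fold line. E2F4, the most abundant pocket-protein partner in many cell types, differed by -0.0085 and 0.0096 on its 2 probe sets and had a mean of 0.00056, among the values nearest to 0 of any gene (99.8% of genes lay at least as far from it). E2F6 had 1 probe set, at 0.075 in the knockdown array and -0.075 in the control array, a difference of 0.15. The median of the class was 0.15, the value of E2F6.

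All probe sets of E2F3 and of E2F5 end in _s_at. Neither gene has a value without such probe sets, and neither is checked by a probe set of another kind. Of the 9074 probe sets with this ending, 6.57% were higher by 1.5-fold or more and 7.09% lower by that size. Among 23047 with neither ending, the shares were 5.28% and 6.35%. The part of probe set kind in these differences was not tested.

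The atypical class rested on E2F7 alone. Its 2 probe sets read -0.099 and -0.087 in the knockdown array, against 0.099 and 0.087 in the control array. They gave nearly the same difference, -0.19 ± 0.017 (1.14-fold lower), yet 45.2% of genes lay at least as far from 0. E2F7 is also known as a p53-induced gene, and a part of p53 in its value was not tested. CDKN1A, the p53 target that encodes the p21 inhibitor of cyclin-dependent kinases, read 0.97 in the knockdown array against -0.97 in the control array on its 1 probe set, which ends in _s_at, a difference of 1.93.

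The DP partners lay on opposite sides of 0. TFDP2, a partner that forms DNA-binding pairs with E2F1 to E2F6, read -0.46, -0.38, -0.37 and -0.090 on its 4 probe sets in the knockdown array, against 0.46, 0.38, 0.37 and 0.090 in the control array. All 4 were lower in the knockdown, 3 of them by more than 1.5-fold. The differences were -0.92 (226157_at), -0.76 (203589_s_at), -0.73 (244043_at) and -0.18 (203588_s_at), with a mean of -0.65 ± 0.32 (1.57-fold lower). Without the probe set nearest to 0 the mean was -0.80. The mean over the 2 probe sets that do not end in _s_at was -0.83.

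TFDP1, the more widely studied DP partner, read 0.13, 0.11 and 0.047 on its 3 probe sets in the knockdown array, against -0.13, -0.11 and -0.047 in the control array. All 3 were slightly higher in the knockdown, with a mean difference of 0.19 ± 0.086 (1.14-fold higher), where 44.5% of genes lay at least as far from 0. TFDP1 exceeded TFDP2 by 0.84, and none of their probe sets overlapped. The difference of a probe set is a ratio between arrays, so these values do not tell which DP transcript was the more abundant.

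From high to low the order was E2F3, E2F5, TFDP1, E2F6, E2F2, E2F4, E2F7, E2F1 and TFDP2. The step from E2F5 to TFDP1, 0.50, was larger than the SD between probe sets of either gene, and their probe sets did not overlap. The smaller steps from E2F4 to E2F7 (0.19) and from E2F7 to E2F1 (0.11) also exceeded the SD of either gene, without overlap. Those SDs rest on few probe sets, and both steps were smaller than the SD pooled over genes, 0.33. The order of E2F4, E2F7 and E2F1 is therefore not settled. The step from E2F1 to TFDP2 (0.35) exceeded the SD of either gene, but the probe sets overlapped. E2F3 and E2F5 differed by 0.069, less than their spread, and the steps from TFDP1 through E2F6 and E2F2 to E2F4 were within the spread too. Several probe sets were at hand for 8 members, and in 6 of these all lay on one side of 0, as in 50.3% of the 8944 such genes overall.

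**Figure D2:**
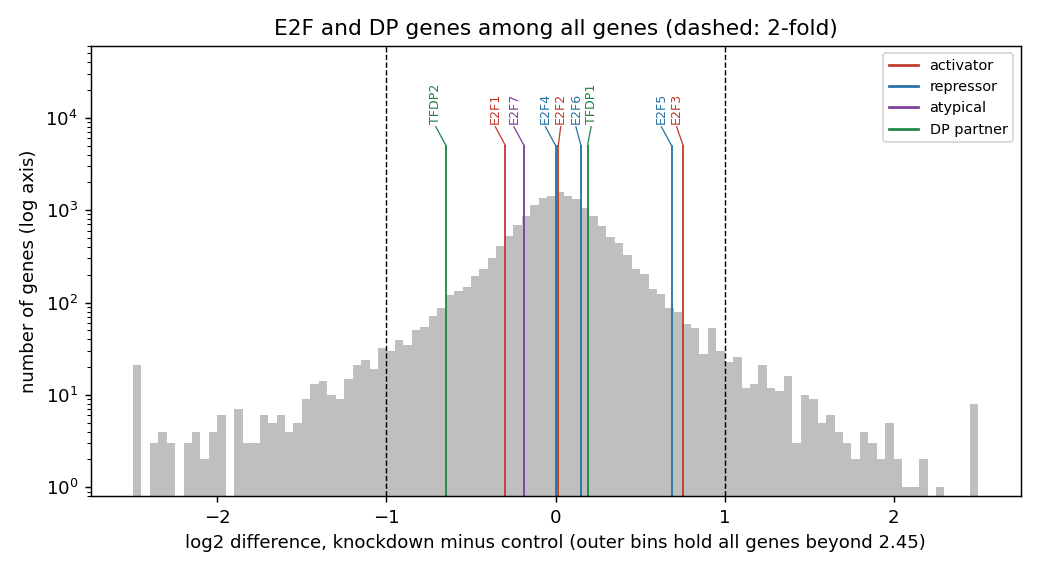
Number of genes (vertical log axis) by log2 difference, knockdown minus control (horizontal axis), for all 17689 genes, with the 9 E2F and DP genes marked by class. The members sit inside the 2-fold lines, from TFDP2 at -0.65 to E2F3 at 0.76.

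Known targets of E2F factors lay mostly below 0. Of 53 measured genes of replication and S phase entry in a textbook list of E2F targets, 49 lay below 0, where 46.3% of all genes did. Those past 2-fold were 12 on the lower side and 0 on the higher side, against 1.44% and 1.16% of all genes. The median of the list was -0.41, against 0.020 for all genes. RRM2, a subunit of ribonucleotide reductase, read -1.28 in the knockdown array against 1.28 in the control array. CDC6, a loader of the replicative helicase, read -0.88 against 0.88, and POLE2 and PRIM1, of the replication polymerases, differed by -1.68 and -1.49. This list was drawn up with lower replication genes in these data already known, so its direction is not independent evidence.

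Genes of G2 and mitosis also lay lower in the knockdown. All 20 listed genes lay below 0, where 46.3% of all genes did, and the list median was -1.44. At least 2-fold lower were 14, against 1.44% of all genes. TOP2A (-3.53 ± 0.19, 2 probe sets), NDC80 (-3.44), NUF2 (-3.27) and KIF20A (-3.13) had the largest differences. CCNA2 stands in this list and in that of the targets. This list too was drawn up with results of these data already known, so its direction is not independent evidence. The part of a smaller share of dividing cells in the E2F and DP values was not tested.

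Of the pocket proteins, RB1 and RBL2 lay near 0 and RBL1 lower. RB1 differed by -0.0073 ± 0.24 (2 probe sets), RBL2, the p130 partner of E2F4, by 0.040 ± 0.074 (2 probe sets) and RBL1, the p107 protein and an E2F target, by -0.29 ± 0.29 (4 probe sets). The MuvB core joins E2F4 and RBL2 in the repressive DREAM complex. Of this core and the activators that replace them on it, 5 of 6 measured genes lay below 0, where 46.3% of all genes did. MYBL2 stands in this list and in that of the G1/S targets. This list and those below were also drawn up with results of these data already known, so their directions are not independent evidence. FOXM1, the activator of mitotic genes, was 4.32-fold lower (-2.11, 1 probe set ending in _x_at). It was the 1 gene of the list past 2-fold, where 1.44% of all genes were at least 2-fold lower. RBBP4 lay at -0.57 ± 0.49 (6 probe sets), LIN9 at -0.48, LIN52 at -0.36 ± 0.23 (2 probe sets) and the list median was -0.42.

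Among the G1 and S phase cyclins and kinases, which include those that release E2F from pocket proteins, the median of 10 measured genes was -0.035. Of these genes 1 was at least 2-fold lower, against 1.44% of all genes. That gene was CCNA2, the S phase cyclin (-1.46 ± 0.26, 2 probe sets). The E cyclins, both known E2F targets, lay on opposite sides of 0. CCNE2 differed by -0.81 ± 0.82 over 2 probe sets, one of which does not end in _s_at or _x_at and differed by -1.39, and CCNE1 by 0.45 ± 0.030 (2 probe sets), read as 0.22 in the knockdown array and -0.22 in the control array. CCNE1 was the highest of the 53 E2F targets. CCND2 lay at 0.10 ± 0.047 (3 probe sets).

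All 6 measured inhibitors of cyclin-dependent kinases lay above 0, as did 53.7% of all genes, with a median of 0.14. CDKN1A was the 1 gene past 2-fold, where 1.16% of all genes were at least 2-fold higher. CDKN2A, an E2F1 target in many cells, differed by 0.28 ± 0.16 (3 probe sets), CDKN1B by 0.15 and CDKN2D by 0.13 ± 0.0069 (2 probe sets). Of 9 genes of the ubiquitin ligases that act in the E2F cycle, 1 was at least 2-fold lower, against 1.44% of all genes. That was CDC20, an activator of the anaphase-promoting complex (-2.80, 1 probe set ending in _s_at), which also stands in the mitotic list. FBXO5, an inhibitor of that complex and an E2F target, lay at -0.64 ± 0.13 (2 probe sets) and CKS1B at -0.58. SKP2, which binds and degrades E2F1 in late S phase, lay at 0.56 ± 0.18 (3 probe sets), and the median of the list was 0.068.

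**Figure D3:**
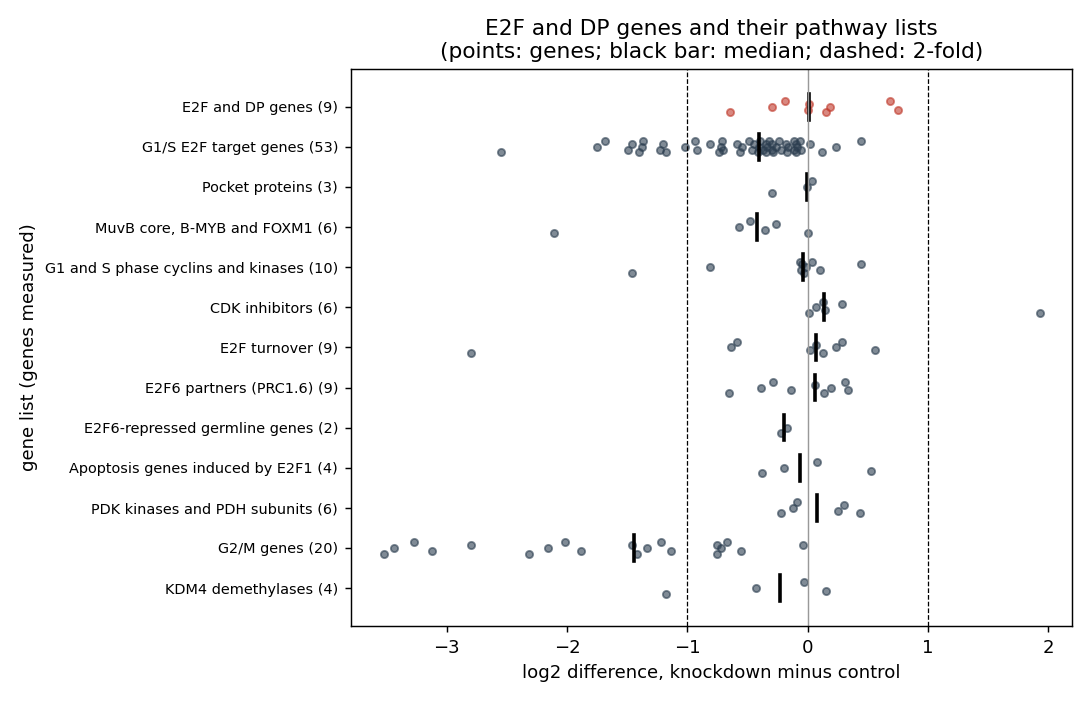
Log2 difference, knockdown minus control (horizontal axis), of every measured gene (points) in the E2F and DP family and in 12 lists of its partners, regulators and targets (vertical axis, number of genes in brackets), with the median of each as a black bar. The median of the E2F and DP genes is 0.016, while the medians of the G1/S targets (-0.41) and the G2/M genes (-1.44) lie to its left.

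The partners of E2F6 in its Polycomb complex had a median of 0.062 over 9 measured genes, none 2-fold apart. MGA, the scaffold of the complex, lay at -0.65 ± 0.55 over 4 probe sets, and at -1.09, past 2-fold, over the 2 that do not end in _s_at or _x_at. Others lay on either side of 0, with RYBP at -0.39 (4 probe sets), YAF2 at 0.33 and MAX, the DNA-binding partner of MGA, at 0.31 ± 0.13 (5 probe sets). Probe sets of RYBP ran from -1.88 to 0.27, which leaves it without a settled direction. Of 4 germline genes that E2F6 represses in mouse cells, 2 were measured, STAG3 at -0.22 and SMC1B at -0.17, both cohesin subunits of meiosis.

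Of 7 apoptosis genes that E2F1 can induce, 4 were measured and none differed 2-fold, with a median of -0.059 that was 0.082 with medians over probe sets. PMAIP1 lay at 0.53 ± 0.23 (2 probe sets), BCL2L11 at -0.38 ± 0.22 (6 probe sets), APAF1 at -0.19 ± 0.51 (3 probe sets) and TP73 at 0.075 ± 0.15 (3 probe sets). The 4 pyruvate dehydrogenase kinases, some of which E2F1 can induce, and 2 subunits of the enzyme had a median of 0.082, with none 2-fold apart. PDHB lay at 0.43 ± 0.052 (2 probe sets), PDHA1 at 0.30 ± 0.19 (3 probe sets), PDK4 at 0.25 and PDK3 at -0.22 ± 0.89 (5 probe sets). KDM4A and 3 of its paralogs had a median of -0.23. KDM4A was the 1 gene of these past 2-fold, where 1.44% of all genes were at least 2-fold lower. KDM4C lay at -0.42 ± 0.44 (3 probe sets), KDM4D at 0.15 ± 0.12 (2 probe sets) and KDM4B at -0.026 ± 0.36 (8 probe sets). TFDP3, the third DP gene, was not analysed here.

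The E2F words shown in the activator promoters were then set against the differences of all genes. A promoter window and a difference were at hand for 13884 genes. In the 784 with a first-set word the median difference was -0.013, and 24 of them (3.06%) were at least 2-fold lower. In the 13100 without one the median was 0.021, and 179 (1.37%) were at least 2-fold lower. The shares at least 2-fold higher were 0.638% with a word and 1.18% without. Second-set words gave medians of 0.0016 with a word and 0.021 without, and shares of 2.19% and 1.42% at least 2-fold lower.

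Within the listed targets, genes with and without a word had like medians. The 22 genes with a first-set word had a median of -0.43, against -0.37 for the 24 without, and 4 and 7 of them were at least 2-fold lower. Of the 67 promoter windows of these targets, 23 (34.3%) held a first-set word. Promoter windows of G2/M genes held one in 2 of 19 cases (10.5%). Genes are not independent replicates, and these shares describe the pair of arrays without a test.

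**Figure D4:**
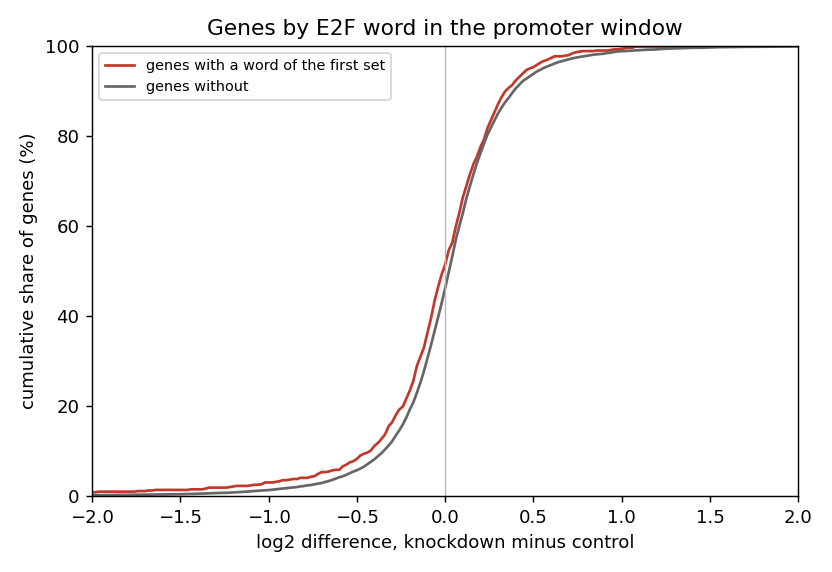
Cumulative share of genes (vertical axis, %) by log2 difference, knockdown minus control (horizontal axis), for the 784 genes with a first-set E2F word in their promoter window (red) and the 13100 genes without one (grey). The red curve lies slightly to the left of the grey one, with medians of -0.013 and 0.021.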

How the data were processed

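RNA from 2 LNCaP cultures, 1 in each group, was measured on Affymetrix arrays. The authors deposited log2-scale values made with RMA (robust multi-array averaging), per the submitters' processing notes, which give no version. The 2 arrays sum to 0 in every row within 1e-06, so levels and detection are lost and dim probe sets could not be filtered. How the values were centred and the genome build were not given in the sources used here. Base 2 was assumed for the logarithm because RMA uses it.

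Genes were named through the platform annotation. Of 34880 probe sets with 1 gene, 34839 matched the RefSeq table of GRCh38.p14 by Entrez identifier and no symbol changed. Probe set differences were averaged by gene, and 2-fold or more was a rule of size, not a test. The gene mean and the rule were tested on simulated data. The simulation held spread between probe sets but none between cultures, so it checks the computation and not the calls. All members were described, and up to 4 genes with the largest differences were named from each of 12 lists with a measured gene. CCNE1 as the highest target and CCNA2's place in several lists were noted after the values were seen. The members and lists were chosen with earlier results of these data known. Alternatives were the median over probe sets, omitting probe sets that end in _s_at or _x_at, subtracting the median, other size rules and leaving out each probe set. Computations used Python 3.11.15, numpy 2.4.6 and pandas 2.3.3.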

Additional observations from a re-analysis of the deposited data

How the results depend on the processing

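No E2F or DP gene was 2-fold apart under any alternative. The looser 1.5-fold rule called 2 higher and 1 lower. The number of G1/S targets called lower was 20 at 1.5-fold and 3 at 3-fold, against 12 at 2-fold. Over all results and alternatives, 210 values stayed within 1 SD between probe sets, or counts within 1.5 times, and 17 did not. This tally does not measure stability. Leaving out a probe set cannot move a gene mean by 1 SD, and many counts were 0 throughout. Each class median moved by less than the pooled SD between probe sets, but that SD is larger than any class median, and the activator median changed sign. It was -0.0067 after subtracting the median difference, as was the mean of E2F2, and E2F4 then lay at -0.022. Leaving out single probe sets also turned E2F2, to -0.11 at the lowest, and E2F4, to -0.0085. The repressor median was 0.34 among genes with 2 or more probe sets and 0.076 without probe sets ending in _s_at or _x_at. FOXM1, CDKN1A and CDC20 rest on such probe sets alone, and without them their lists had 0 genes past 2-fold in those directions. The same step added calls on the lower side, giving 2 cyclins and kinases with CCNE2 (-1.39) and 1 E2F6 partner, MGA (-1.09). It also cut the G1/S targets at least 2-fold lower from 12 to 9, and the G2/M genes from 14 to 12. Among the targets, MCM5 (-0.47) and MCM10 (-0.34) no longer passed, while CCNE2 did. The other targets lost, and the G2/M genes lost, were left without a probe set. Why probe sets of the same gene differed was not tested. No paired analysis was possible because each group has 1 array. With 1 array a group and centred values, dim probe sets could not be told from bright ones, and a small difference of a weak gene cannot be weighed.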
